A study of Oryza sativa with 4 samples.

Results

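The 5 genes described here are rice regulators of the secondary cell wall and 1 wall gene known to depend on such regulators, followed across paleas of 4 genotypes. They are SWN1 (LOC_Os06g04090, chromosome 6), SWN2 (LOC_Os08g02300, chromosome 8), MYB46 (LOC_Os12g33070, chromosome 12), MYB103 (LOC_Os08g05520, chromosome 8) and BRITTLE CULM1 (BC1, LOC_Os03g30250, chromosome 3). They were taken by name and not by a cut on their values, though with earlier results of these data known. They are 5 of the 55986 genes in the table. The chromosomes are those in the locus IDs. All 5 had a mean of at least 1 FPKM (fragments per kilobase of transcript, scaled to depth) over the genotypes, a minimum that 20675 genes met.

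The secondary wall is laid down inside the primary wall once a cell has stopped growing, and it is built of cellulose, xylan and lignin. In rice the lemma and palea, the bracts that close around the flower, become hard hulls rich in such walls. NAC transcription factors of the SWN group act as switches at the top of the programme, and R2R3-MYB factors such as MYB46 and MYB103 act below them on genes of cellulose, xylan and lignin synthesis. BC1 encodes a COBRA-like protein that acts in cellulose assembly, and rice plants that lack it have culms that snap.

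The groups were paleas labelled Osmads6, a Tos17 retrotransposon insertion line given as Nipponbare; Osmads32, a T-DNA insertion line given as AF36; rep1, a deletion line given as japonica; and wild type, also given as japonica. Plants of all 4 groups grew in the same paddy field, and no age, stage or batch was given in the sources used here, so genotype cannot be told apart from background or from any difference in stage. Of the mutated genes, OsMADS6 and OsMADS32 belong to the MADS-box factors that pattern the flower, and REP1 to the TCP factors, which shape the palea. The table has 2 columns for each of the 4 samples; both were read as runs of 1 sample, so each genotype has n = 1 and the genotypes could not be tested against each other. The error given is the spread of the runs, which the labels do not tie to separate plants.

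Some facts of the libraries bear on every value. Recovered depth lay between 36215500 and 53262671 reads per run. The wild type runs differed most from each other, with a median absolute log2 difference of 0.28 over 20675 genes, against 0.13 in Osmads6, 0.15 in Osmads32 and 0.16 in rep1. OsMADS6, the targeted gene of one mutant, stood at 124 and 129.8 FPKM in the library labelled Osmads6, at 257 and 267 FPKM in Osmads32, at 826 and 858 FPKM in rep1 and at 12.5 and 14.4 FPKM in the library labelled wild type, so it was lowest where no mutation is labelled. OsMADS32 did not single out its own labelled mutant: it stood at 14.6 and 15.3 FPKM in Osmads6, at 8.69 and 7.95 FPKM in Osmads32, at 3.11 and 2.44 FPKM in rep1 and at 6.63 and 7.75 FPKM in wild type. REP1, the third targeted gene, gave at most 11 reads in any run. The RefSeq gene table has the symbol REP1 on another chromosome only and lacks OsMADS32, so neither locus is a checked match. None of the 3 targeted genes thus checks its label, and OsMADS6 goes against the wild type and Osmads6 labels. The genotype names below are therefore the labels of the libraries, and each direction rests on them. As markers of the tissue, the hull identity gene OsMADS1 was between 249 and 830.3 FPKM in all runs. Of the anther markers, the tapetum gene RTS was at 0 in Osmads6 and between 83.9 and 188 FPKM in the other libraries, whereas TDR, a tapetum transcription factor gene, was highest in Osmads6 (4.07 and 4.92 FPKM) and between 0.838 and 1.21 FPKM in the others.

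The NAC switches were examined first. SWN1 stood at 11.4 and 12.7 FPKM in the library labelled Osmads6, at 21.0 and 19.9 FPKM in Osmads32, at 32.9 and 34.3 FPKM in rep1 and at 26.4 and 27.7 FPKM in wild type. Both rep1 runs lay above all others and both Osmads6 runs below all others, and the runs of no neighbouring pair in the order rep1, wild type, Osmads32, Osmads6 overlapped. The range from rep1 to Osmads6 was 2.79-fold, and between the runs of 1 genotype the larger value was at most 1.12-fold the smaller. Its reads per run numbered between 887 and 2988, so counting error was small beside these steps.

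SWN2, a close relative of SWN1 with which it can share reads, varied less. It stood at 10.8 and 9.80 FPKM in Osmads6, at 12.1 and 14.4 FPKM in Osmads32, at 15.0 and 16.1 FPKM in rep1 and at 12.9 and 16.1 FPKM in wild type. Osmads6 lay below the others, while the rep1 and wild type runs overlapped, as did those of wild type and Osmads32. The whole range over genotype means was 1.51-fold, against a difference between the wild type runs of 1.25-fold.

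Because FPKM is a level per length, the genes can be set against each other within a run. SWN1 was 1.06 and 1.30 times the level of SWN2 in the Osmads6 runs, 1.73 and 1.38 times in Osmads32, 2.19 and 2.13 times in rep1 and 2.05 and 1.72 times in wild type. SWN1 was thus the higher of the pair in all 8 runs, by least in Osmads6.

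**Figure D1:**
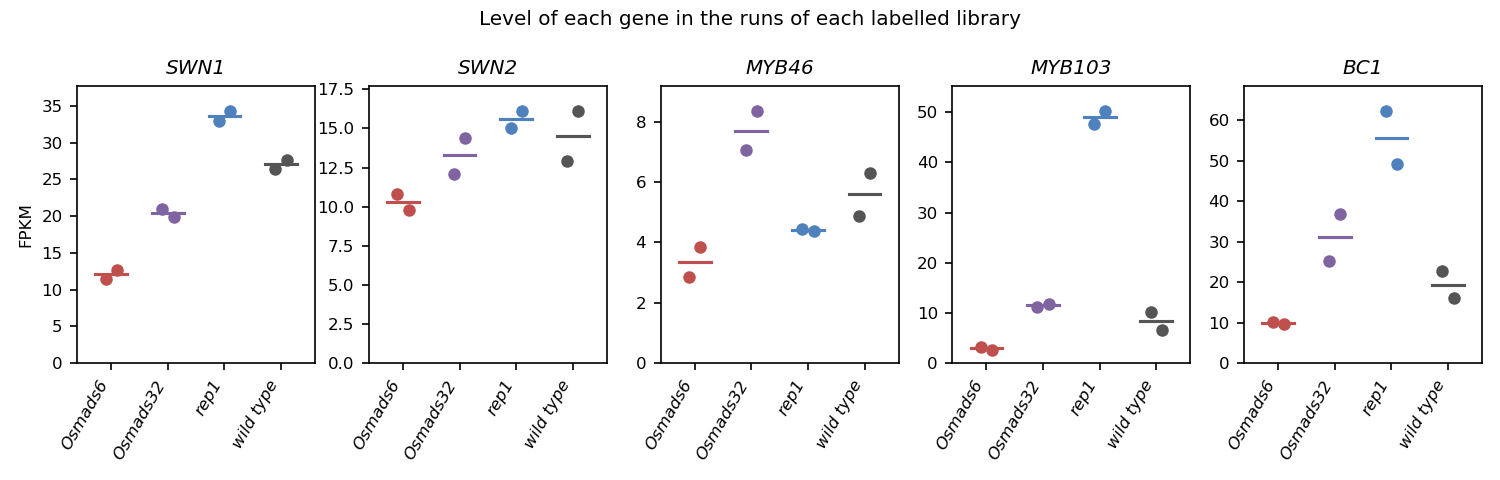
FPKM (y axis, starting at 0 with its own scale for each gene) of SWN1, SWN2, MYB46, MYB103 and BC1 in the libraries labelled Osmads6, Osmads32, rep1 and wild type. Points are the 2 runs of a library and lines their mean. MYB103 reaches 47.7 and 50.2 FPKM in rep1 and is at most 11.8 FPKM elsewhere, and Osmads6 has the lowest mean of every gene.

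The MYB factors differed from each other. MYB46, which binds promoters of wall synthesis genes, stood at 2.86 and 3.85 FPKM in Osmads6, at 7.07 and 8.35 FPKM in Osmads32, at 4.44 and 4.38 FPKM in rep1 and at 4.89 and 6.30 FPKM in wild type. It was highest in Osmads32, where SWN1 was below wild type, and it was the only 1 of the 5 genes whose mean was lower in rep1 than in wild type. Neighbours in the order Osmads32, wild type, rep1, Osmads6 did not overlap, but each step was between 1.27-fold and 1.38-fold, about as large as the difference between the Osmads6 runs (1.35-fold). MYB46 was the least abundant gene of the 5 in Osmads32, rep1 and wild type, with 126 to 424 reads per run.

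MYB103, which in rice is known to act on the secondary wall cellulose synthase genes, had the widest range. It stood at 3.30 and 2.62 FPKM in Osmads6, at 11.2 and 11.8 FPKM in Osmads32, at 47.7 and 50.2 FPKM in rep1 and at 10.2 and 6.67 FPKM in wild type. The runs of no genotypes overlapped, and the range from rep1 to Osmads6 was 16.5-fold. In the library labelled rep1 its mean level lay above that of 89.5% of the genes measured, and in Osmads6 above that of 20.6%. The wild type runs were 1.53-fold apart, from 932 and 548 reads, and that ratio has a 95% counting interval (exact Clopper-Pearson) from 1.37 to 1.70, which covers counting error only.

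The balance of the MYB genes turned on rep1. MYB103 was 1.15 and 0.680 times the level of MYB46 in the Osmads6 runs, 1.58 and 1.42 times in Osmads32 and 2.08 and 1.06 times in wild type, but 10.7 and 11.5 times in rep1. The rep1 runs were far from the others, and the ranges of Osmads6, Osmads32 and wild type overlapped in part. The 4 regulators together summed to 28.4 and 29.0 FPKM in Osmads6, 51.4 and 54.5 FPKM in Osmads32, 100.1 and 105 FPKM in rep1 and 54.4 and 56.8 FPKM in wild type.

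BC1 followed the order of MYB103. It stood at 10.1 and 9.58 FPKM in Osmads6, at 25.3 and 36.9 FPKM in Osmads32, at 62.2 and 49.1 FPKM in rep1 and at 22.8 and 16.0 FPKM in wild type. The means ranked in the order rep1, Osmads32, wild type, Osmads6, with no overlap between neighbours and a range of 5.65-fold. Its runs were further apart than those of SWN1: 1.46-fold in Osmads32, where 94.3% of genes had a smaller run difference, 1.43-fold in wild type and 1.27-fold in rep1, against 1.06-fold in Osmads6. BC1 was 3.06 and 3.66 times the level of MYB103 in Osmads6, 2.26 and 3.12 times in Osmads32, 1.30 and 0.979 times in rep1 and 2.24 and 2.40 times in wild type. It was at least as abundant as MYB103 in every run except the second of rep1.

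**Figure D2:**
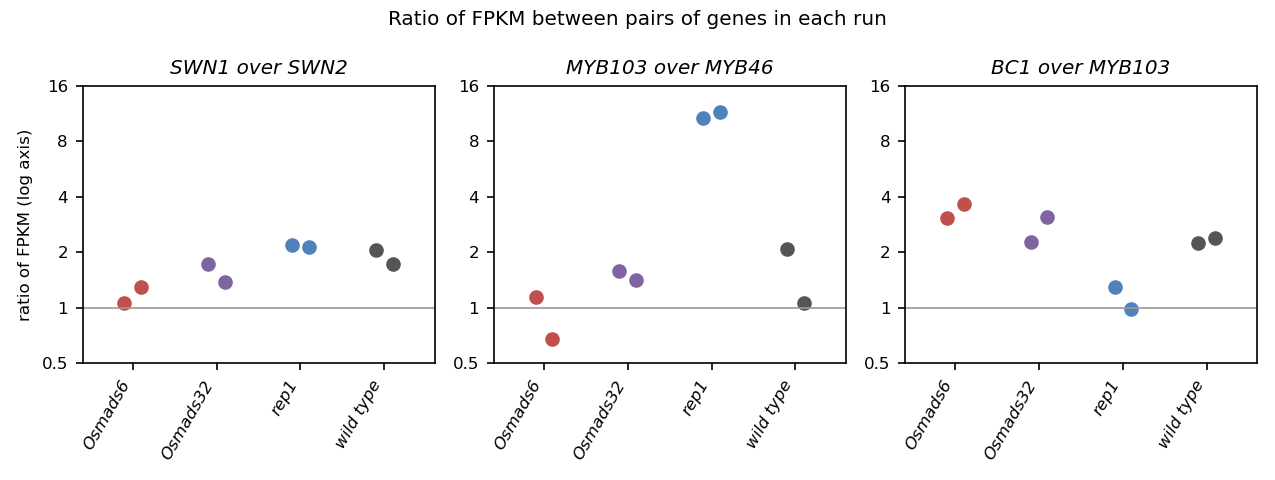
Ratio of FPKM between 2 genes within each run, on a log axis, for SWN1 over SWN2, MYB103 over MYB46 and BC1 over MYB103; points are runs and the line marks equal levels. MYB103 is 10.7 and 11.5 times MYB46 in rep1 and at most 2.08 times elsewhere, while BC1 over MYB103 is lowest in rep1.

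The first comparison was of paleas labelled Osmads6 and wild type. On the scale used for counting, log2((FPKM + 1)/(FPKM + 1)) of the genotype means with at least 2-fold as the threshold, SWN1 and MYB103 were lower, and SWN2, MYB46 and BC1 were below wild type by less than that. A fold of a named gene divides the mean FPKM values with nothing added. The 2 lower genes of 5 stand beside 7.47% of all 20675 genes that were at least 2-fold lower. SWN1 averaged 12.1 FPKM in Osmads6 and 27.1 FPKM in wild type, 2.24-fold lower, and the 4 pairings of single runs gave 2.07-fold to 2.43-fold. MYB103 averaged 2.96 FPKM in Osmads6 and 8.42 FPKM in wild type, 2.84-fold lower with run pairings from 2.02-fold to 3.88-fold. BC1 was just short of the threshold, at 9.85 FPKM in Osmads6 and 19.4 FPKM in wild type (log2 ratio -0.91). The wild type runs decide both borderline calls: without run 1 MYB103 is at a log2 ratio of -0.95 and not counted, and without run 2 BC1 is at -1.14 and counted. MYB46 had a log2 ratio of -0.60 and SWN2 of -0.45. The runs did not overlap for all 5 genes, which was also so for 67.1% of all genes. The median of the 5 log2 ratios was -0.91, and that of all genes -0.01. If the wild type and Osmads6 labels were exchanged, these directions would turn by construction. At thresholds of 1.5-fold and 4-fold, 4 and 0 of the 5 genes passed, beside 33.5% and 2.72% of all genes.

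No gene of the 5 passed 2-fold between paleas labelled Osmads32 and wild type, where 5.15% of all genes did. BC1 was furthest from wild type, at 31.1 FPKM in Osmads32 and 19.4 FPKM in wild type, 1.60-fold, with run pairings from 1.11-fold to 2.31-fold. MYB103 was 1.37-fold wild type (run pairings 1.10-fold to 1.77-fold) and MYB46 1.38-fold (1.12-fold to 1.71-fold). SWN1 was on the other side, at 20.4 FPKM in Osmads32 and 27.1 FPKM in wild type, and its run pairings of 1.26-fold to 1.39-fold lower were narrow. SWN2 overlapped between the libraries (log2 ratio -0.12). At 1.5-fold BC1 alone passed, beside 16.0% of all genes. With wild type and Osmads6 labels exchanged, MYB103 (log2 ratio 1.66) and BC1 (1.57) pass 2-fold in Osmads32, so the absence of calls rests on the labels.

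In paleas labelled rep1, MYB103 and BC1 were at least 2-fold above wild type, and SWN1, SWN2 and MYB46 were not. The 2 higher genes of 5 stand beside 5.13% of all genes. MYB103 averaged 49.0 FPKM in rep1 and 8.42 FPKM in wild type, 5.81-fold higher with run pairings from 4.69-fold to 7.53-fold, and only 0.595% of all genes had a larger log2 ratio. BC1 averaged 55.7 FPKM in rep1 and 19.4 FPKM in wild type, 2.87-fold higher with run pairings from 2.15-fold to 3.88-fold. SWN1 was 1.24-fold wild type (run pairings 1.19-fold to 1.30-fold), SWN2 overlapped between the libraries at 1.07-fold, and MYB46 stood at 4.41 FPKM in rep1 and 5.59 FPKM in wild type. Over all genes the median log2 ratio stood at -0.15, and relative to it the values were 2.55 for MYB103, 1.62 for BC1, 0.45 for SWN1, 0.24 for SWN2 and -0.14 for MYB46. After median-ratio scaling the share of higher genes among all genes past 2-fold was 47.4% in place of 36.9%. With wild type and Osmads6 labels exchanged, the comparison is with the library now labelled Osmads6. MYB103 (3.66) and BC1 (2.38) remain higher in rep1 there and SWN1 (1.41) joins them. At 4-fold MYB103 alone passed, beside 2.97% of all genes. Shares past 2-fold in either direction were 13.9% here and 15.2% in Osmads6. The 3 comparisons above share the wild type library.

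**Figure D3:**
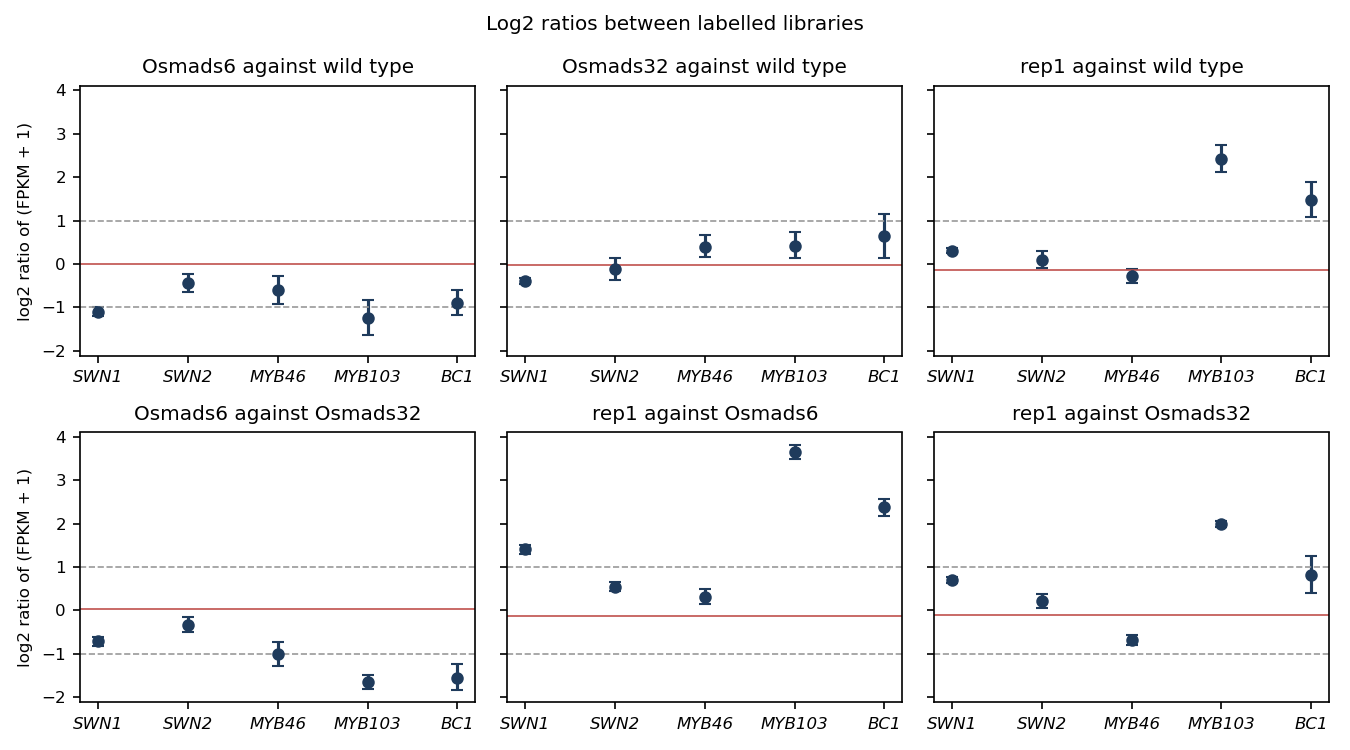
Log2 ratio of (FPKM + 1) between the genotype means for the 5 genes in 6 comparisons, first-named library over second. Bars span the 4 pairings of single runs, dashed lines mark 2-fold and the red line is the median of all 20675 genes. MYB103 and BC1 lie above 2-fold for rep1 against wild type (2.41 and 1.47) and against Osmads6 (3.66 and 2.38).

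The mutants were then set against each other, which leaves out the library labelled wild type but not the doubt about the Osmads6 label. In Osmads6 against Osmads32, MYB103 (2.96 against 11.5 FPKM, 3.88-fold lower) and BC1 (9.85 against 31.1 FPKM, 3.16-fold lower) passed 2-fold, beside 5.98% of all genes lower. Both calls rest on that label: with wild type and Osmads6 labels exchanged, MYB103 is at a log2 ratio of -0.41 and BC1 at -0.65, and no gene of the 5 passes. MYB46 (3.36 against 7.71 FPKM) was 2.30-fold lower with nothing added, with run pairings from 1.84-fold to 2.92-fold lower. On the counting scale it missed the threshold by the fourth decimal, at a log2 ratio of -0.9999. SWN1 was 1.69-fold lower and SWN2 1.29-fold lower, with no overlap of runs for any of the 5 genes and for 74.0% of all genes. At 1.5-fold 4 of the 5 genes passed, beside 30.8% of all genes, and at 4-fold 0, beside 2.62%.

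In rep1 against Osmads6, SWN1 (2.79-fold), MYB103 (16.5-fold) and BC1 (5.65-fold) were higher, 3 of 5 beside 10.7% of all genes. SWN2 (1.51-fold) and MYB46 (1.31-fold) were not past 2-fold. The run pairings of MYB103 ran from 14.4-fold to 19.2-fold. The call of SWN1 and the size of all 3 differences rest on the Osmads6 label: with wild type and Osmads6 labels exchanged, SWN1 is at a log2 ratio of 0.30 and not counted, while MYB103 (2.41 in place of 3.66) and BC1 (1.47 in place of 2.38) still pass. This was also the pair of libraries that differed most widely, with 27.3% of all genes past 2-fold in either direction.

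In rep1 against Osmads32, MYB103 alone passed 2-fold (4.26-fold, run pairings 4.04-fold to 4.49-fold), beside 6.47% of all genes higher. BC1 was 1.79-fold higher, and without the second Osmads32 run it passes, at a log2 ratio of 1.11. SWN1 was 1.65-fold higher and MYB46 1.75-fold lower, so the 2 lay on opposite sides. At 1.5-fold 4 of the 5 genes passed, beside 34.9% of all genes, and at 4-fold 0, beside 3.55%. On the counting scale MYB103 just missed 4-fold, at a log2 ratio of 1.9981, and it passes with a pseudocount of 0.1 FPKM (2.08) or median-ratio scaling (2.12). MYB103 was thus past 2-fold higher in rep1 against each of the other 3 libraries. An exchange of the wild type and Osmads6 labels leaves that count as it is by construction.

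Which wall genes had the most similar pattern was asked next. Likeness was the mean absolute difference between 2 genes in log2(FPKM + 1), each centred on its own mean over the 4 genotypes, so it is a measure over 4 points from shared libraries and carries no test. The candidates to name were genes of lists on wall synthesis whose symbol could be checked against the RefSeq gene table, ranked among all 20674 other genes. For MYB103 the nearest were 4CL3 (0.09, rank 5), a 4-coumarate ligase gene of lignin synthesis, CAD2 (0.31, rank 105), a cinnamyl alcohol dehydrogenase gene, and COMT1 (0.35, rank 145), a caffeic acid O-methyltransferase gene. The median difference from MYB103 over all genes was 1.11.

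For BC1 the nearest were IRX14 (0.08, rank 5) and IRX9L (0.14, rank 31), glycosyltransferase genes of xylan synthesis, and COMT1 (0.19, rank 80), against a median over all genes of 0.82. IRX14 stood at 118 and 111 FPKM in Osmads6, 348 and 326 FPKM in Osmads32, 526 and 545 FPKM in rep1 and 221 and 252 FPKM in wild type, the same order of genotypes as BC1. Of the secondary wall cellulose synthase genes, CESA9 ranked 150 for MYB103 and 655 for BC1, CESA4 ranked 277 and 478, and CESA7 ranked 392 and 346. MYB103 and BC1 were themselves 0.42 apart, rank 225 from the side of MYB103 and rank 886 from the side of BC1, for which all 3 of these synthase genes were nearer.

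Among the other 3 genes, MYB46 had a COBRA-like gene, BC1L6, as its nearest checked wall gene (0.15, rank 399), against a median over all genes of 0.41. The nearest checked wall gene to SWN1 was CESA3, a primary wall cellulose synthase gene (0.27, rank 1634), and SWN2 followed at 0.28 (rank 1854). For SWN2, which hardly varied, the nearest, CESA3, ranked 9824. MYB46 and MYB103 were 1.09 apart, rank 20032 of 20674 from the side of MYB46 but 9438 from that of MYB103, whose median difference to all genes is about as large. Outside the lists, LOC_Os12g41680 (0.04) was the nearest gene to MYB103 and LOC_Os03g14270 (0.06) the nearest to BC1.

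**Figure D4:**
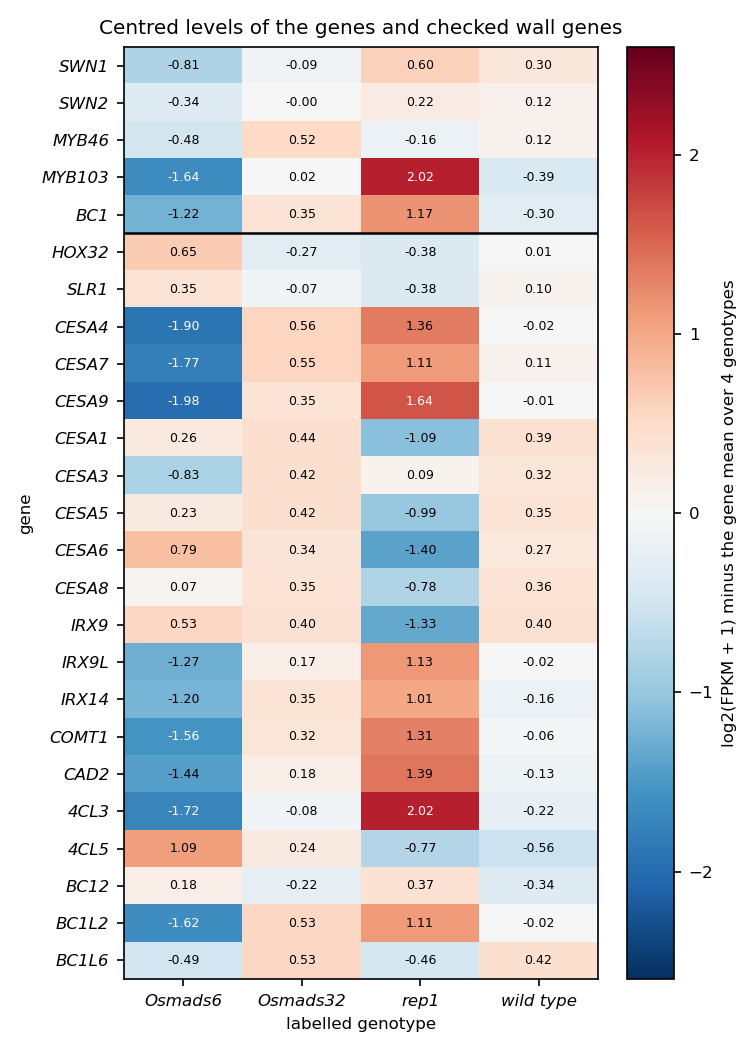
Log2(FPKM + 1) minus the mean of the gene over the 4 labelled genotypes, for the 5 genes (above the line) and the wall genes with a checked symbol (below it); red is above and blue below the mean of the gene. SWN1, SWN2, MYB103, BC1, the secondary wall CESA4, CESA7 and CESA9, IRX9L, IRX14, COMT1, CAD2, 4CL3 and BC1L2 are lowest in Osmads6 and highest in rep1. MYB46, CESA3 and BC1L6 are lowest in Osmads6 and highest in Osmads32, HOX32, SLR1, IRX9, 4CL5 and the primary wall CESA1, CESA5, CESA6 and CESA8 are lowest in rep1, and BC12 is lowest in wild type.

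Genes of wall synthesis were counted by list. The shares of all genes to set beside every list count against wild type are 7.70% higher and 7.47% lower in Osmads6, 5.15% either way in Osmads32, and 5.13% higher and 8.78% lower in rep1. Of 3 secondary wall cellulose synthase genes, 3 were at least 2-fold lower in Osmads6 than in wild type (median log2 ratio -1.88), 0 passed in Osmads32 (0.44) and 3 were higher in rep1 (1.38). Of 4 xylan genes, 2 were lower in Osmads6 (-0.91), 0 passed in Osmads32 (0.29), and 3 were higher and 1 lower in rep1 (1.13). The lower one was IRX9, at 18.9 and 18.4 FPKM in rep1 and 76.5 and 51.5 FPKM in wild type, opposite to IRX9L (152 and 171 FPKM in rep1, 65.1 and 79.3 FPKM in wild type). Of 6 lignin genes measured, 5 were lower and 1, 4CL5, higher in Osmads6 (-1.40), 0 passed in Osmads32 (0.22) and 4 were higher in rep1 (1.36). Primary wall cellulose synthases, which serve growing cells, were lower in rep1 in 4 of 5 members (-1.34). They had 1 of 5 lower in Osmads6 (-0.14) and 0 in Osmads32 (0.07).

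Relatives of the members did not all share their pattern. BC1L2, a COBRA-like gene next to BC1 on chromosome 3 that may share reads with it, stood at 10.2 and 9.70 FPKM in Osmads6, 49.9 and 45.9 FPKM in Osmads32, 71.2 and 72.4 FPKM in rep1 and 29.3 and 35.3 FPKM in wild type. This is the order of BC1. BC1L6 differed, at 3.85 and 4.07 FPKM in rep1 and 9.93 and 6.28 FPKM in wild type. Of 5 COBRA-like loci measured, 2 were higher and 1 lower in Osmads6, 0 passed in Osmads32 and 1 was higher in rep1. Of 5 other brittle culm loci, 0 passed 2-fold against wild type in any mutant, with medians of 0.02 in Osmads6, -0.04 in Osmads32 and -0.45 in rep1. Most loci of these lists had no checked symbol, and for 1 of the COBRA-like loci, higher in Osmads6, RefSeq has the symbol on another chromosome, so its place in the list is uncertain.

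Among 7 other loci listed as secondary wall regulators, 2 were lower in Osmads6 (median 0.05), 0 passed in Osmads32 (-0.04) and 3 were higher in rep1 (0.47). Only HOX32, a homeobox gene, and SLR1, the DELLA repressor of gibberellin responses, have a checked symbol, and neither passed 2-fold against wild type. The 3 loci higher in rep1 have none, and the pair with the largest ratios is given by ID. LOC_Os05g48850 stood at 200.5 and 178 FPKM in rep1 and 19.8 and 16.0 FPKM in wild type, and LOC_Os04g50770 at 34.5 and 33.7 FPKM in rep1 and 6.04 and 3.86 FPKM in wild type. These were singled out after their values were seen.

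The neighbours of the 5 genes on their chromosomes were counted in the same way. The 10 nearest measured loci of each gene, 5 on each side, gave 50 in all. Past 2-fold against wild type were 0 higher and 4 lower in Osmads6, 1 higher and 4 lower in Osmads32, and 3 higher and 2 lower in rep1. In either direction that is 4 of 50 loci in Osmads6, 5 of 50 in Osmads32 and 5 of 50 in rep1. As shares of the 50 loci, these lay below the share of all genes in Osmads6 (15.2%) and rep1 (13.9%). In Osmads32 the share of the neighbours lay above that of all genes (5.15%). The counts are small and were not tested, so they cannot decide whether the neighbourhoods differ from all genes. For MYB103 in rep1 against wild type 1 of 10 neighbours was higher, and for BC1 1 of 10. The BC1 neighbour was BC1L2, which may share reads with it.

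Values of other cell types moved with some of these results. The 6 genes of anther and tapetum summed to 9.17 and 8.27 FPKM in Osmads6, 177 and 206 FPKM in Osmads32, 304 and 299 FPKM in rep1 and 233 and 225 FPKM in wild type. Anthers form secondary walls in the endothecium. The sum is lowest in Osmads6 and highest in rep1, as are MYB103 and BC1, but it is higher in wild type than in Osmads32, where those genes have the opposite order. Outside Osmads6 the sum is mostly RTS and C6, a lipid transfer protein gene. In Osmads6 its largest part is TDR (4.07 and 4.92 FPKM). OsMADS3 alone of the 6 had the order of MYB103 and BC1. Its means were 14.8 FPKM in rep1, 7.30 FPKM in Osmads32, 4.82 FPKM in wild type and 1.22 FPKM in Osmads6. Of the 6 genes, 4 were at least 2-fold lower and 1, TDR, higher in Osmads6 than in wild type (median log2 ratio -2.13), while in rep1 only OsMADS3 passed, 3.06-fold higher (median 0.06). RTS was the only 1 of the 6 genes at 0, in Osmads6. The 4 genes of cell division summed to 43.6 and 45.0 FPKM in Osmads6, 35.0 and 39.2 FPKM in Osmads32, 4.84 and 5.74 FPKM in rep1 and 35.2 and 65.9 FPKM in wild type, lowest in rep1. Only CYCB2;1 and CDKB1;1 were at least 2-fold lower in rep1 than in wild type. CYCB1;1 (0.548 against 0.668 FPKM) and CDKB2;1 (1.43 against 1.22 FPKM) did not pass. Of 3 genes of carpel, ovule and lemma midrib, all were at least 2-fold higher in Osmads32 than in wild type, and in rep1 they diverged. The ovule gene OsMADS13 stood at 10.2 and 11.5 FPKM in rep1 and 0.423 and 0.691 FPKM in wild type (19.5-fold higher), and DL, the carpel and midrib gene, at 0.617 and 0.381 FPKM in rep1 and 24.5 and 13.6 FPKM in wild type (38.2-fold lower). Of 4 hull identity genes, OsMADS1 (2.17-fold) and OsMADS15 (2.89-fold) were lower in rep1 than in wild type and OsMADS6 higher. Of 3 genes counted as housekeeping, only the actin gene ACT1 passed, 2.58-fold lower in rep1, while EF1A was about level (1381 against 1498 FPKM). The part of these tissues and stages in the differences was not tested, and in bulk tissue fewer cells of a type and less RNA per cell cannot be told apart.

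The wild type runs differed from each other in several of these genes. Run 1 was higher than run 2 for MYB103 (1.53-fold) and BC1 (1.43-fold), for 3 of 3 secondary wall cellulose synthases and for 4 of 4 checked lignin genes. Run 1 was lower for SWN2, MYB46, 5 of 5 primary wall cellulose synthases and 4 of 4 cell division genes. Some genes near BC1 in pattern went the other way from it. IRX14 (221 and 252 FPKM), IRX9L (65.1 and 79.3 FPKM) and BC1L2 (29.3 and 35.3 FPKM) were lower in run 1. COMT1, also among the nearest, was about level (1134 and 1125 FPKM). Of 3 checked xylan genes only IRX9 was higher in run 1. SWN1 was nearly level, at 26.4 and 27.7 FPKM.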

How the data were processed

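The authors deposited FPKM values per gene (fragments per kilobase of transcript, scaled to mapped fragments, made from paleas after messenger RNA enrichment, per the labels' protocols) in 8 columns, 2 per genotype. The submitters' processing notes name the build IRGSP 1.0; no aligner, counter, strand setting or annotation is given in the sources used here. The columns of a genotype were read as runs of its 1 sample. Paralogs such as SWN1 and SWN2, or BC1 and BC1L2, may share reads.

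From the deposited FPKM values, whole reads (tolerance 0.02) were recovered for 44686 genes, 99.9% of those above 0, and tested on simulated data; they give depth and counting error only. The measure was log2((first FPKM + 1)/(second FPKM + 1)) on means of runs, where the mean over genotypes reached 1 FPKM. The pseudocount understates differences of low genes; folds of single genes use no pseudocount.

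The table gives no gene names. Names of the 5 genes were given with their loci; other symbols were paired with loci from published nomenclature and kept as checked when RefSeq (assembly ASM3414082v1) has the symbol on the same chromosome and in order with 90% or more of the others: 41 of 66 pairs passed, 22 symbols were not in the table and 3 lay on another chromosome only. Of the 5 genes BC1 alone passed this check, and the symbols SWN1, SWN2, MYB46 and MYB103 were not in RefSeq. List counts use all pairs. Named were the 5 genes, the targeted genes, checked list genes, the 3 nearest list genes per member and at most 2 IDs each way. The genes and lists were chosen with earlier results of these data known. Alternatives were another pseudocount, threshold, filter and scaling, each run left out, checked pairs only, and exchanged labels. Python 3.11.15, numpy 2.4.6, pandas 2.3.3, scipy 1.17.1 and matplotlib 3.10.9 were used.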

Additional observations from a re-analysis of the deposited data

How the results depend on the processing

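The number of the 5 genes past 2-fold was unchanged with a pseudocount of 0.1 FPKM and with median-ratio scaling in all comparisons except Osmads6 against Osmads32, where MYB46 joined under both (log2 ratio -1.18 and -1.03), 3 genes in place of 2. With a threshold of 1.5-fold the count was 4 in Osmads6 against wild type and against Osmads32, 1 in Osmads32 against wild type and 4 in rep1 against Osmads32; with 4-fold it was 0 in Osmads6 against wild type, in Osmads6 against Osmads32 and in rep1 against Osmads32, and 1 in rep1 against wild type. Leaving out 1 run at a time gave counts of 1 to 3 in Osmads6 against wild type, 2 to 3 in Osmads6 against Osmads32 and 1 to 2 in rep1 against Osmads32, and 115 of 120 single calls were kept. With wild type and Osmads6 labels exchanged, SWN1 was at 1.10 and MYB103 at 1.25 in Osmads6 against wild type, the count was 2 in Osmads32 against wild type and 0 in Osmads6 against Osmads32, and 22 of 30 single calls were kept. Without a filter on low values the share of all genes past 2-fold ran from 2.05% in Osmads32 against wild type to 10.9% in rep1 against Osmads6, in place of 5.15% and 27.3%, since genes near 0 then count as measured.

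With checked symbols only, medians of the other regulators against wild type were 0.45 in Osmads6, -0.22 in Osmads32 and -0.44 in rep1 (2 genes), so that list gives no direction. Those of xylan genes were -1.04 in Osmads6 and 0.19 in Osmads32. That of the 1 checked brittle culm gene was 0.52 in Osmads6, 0.12 in Osmads32 and 0.71 in rep1. Its Osmads32 and rep1 values were opposite in sign to the full list (-0.04 and -0.45). The medians of 2 COBRA-like genes were -1.26 in Osmads6 and 0.13 in rep1, both opposite in sign to their full list. The causes were not tested. No paired analysis was possible because each genotype has 1 sample and no comparison was tested. Depth did not limit these genes: the lowest count was 126 reads, for MYB46 in Osmads6.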
